A study of Homo sapiens with 4 samples.

Results

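Regions of ONECUT2 occupancy that lie close to one another on the chromosome are described here. They come from the authors' list of an irreproducible discovery rate (IDR) procedure, which is meant to keep regions that rank alike in replicate experiments. A region was counted as clustered when its start lay within 50000 bp of the start of at least 1 other region of the list on the same chromosome. On chromosomes 2, 3, 4, 5, 6, 9, 10, 11, 14, 15, 16, 20 and 22, 547 of 1993 regions met this rule, and the other 1446 are called single. The whole list has 4297 regions. The members were thus chosen by the positions of regions called from these same libraries, so every comparison of clustered and single regions is a description without a test.

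The study used chromatin immunoprecipitation with sequencing (ChIP-seq) in 22Rv1, an established cell line from a castration-resistant human prostate carcinoma, for which the labels name no treatment. A rabbit antibody against ONECUT2 gave 2 ChIP libraries, and 2 further libraries hold input DNA, which is sonicated chromatin without immunoprecipitation. The labels do not say that the libraries of a kind came from separate cultures, so the spread between them may be technical, and they name no ChIP control without the antibody or without ONECUT2. Each ChIP library has its own list of peaks called against input, with 14431 peaks in replicate 1 and 11990 in replicate 2.

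As background, ONECUT2 is a transcription factor that binds DNA through a CUT domain and a homeodomain, and it is known in the liver, in the nervous system and in advanced prostate cancer. Transcription factors often occupy several sites in the same neighbourhood, because promoters lie close together in gene-dense DNA and because 1 gene can have several enhancers. A list of called regions can also hold neighbours when 1 broad stretch of signal is divided into parts. Distance alone does not tell these cases apart, and no gene was assigned to a region because no annotation of the build hg19 was used.

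The 547 clustered regions formed 241 clusters, taking each run of regions with steps of at most 50000 bp as 1 cluster. Most were pairs: 189 clusters (78.4%, 95% exact Clopper-Pearson interval 72.7% to 83.4%) had 2 regions, 41 had 3, 9 had 4 and 2 had 5. The median cluster spanned 27043 bp, and the widest spanned 105682 bp. Regions covered a median of 15.2% of the span, and the rest lay between them. A neighbour within 50000 bp was found for 27.4% of the regions on these chromosomes and for 33.7% of the whole list.

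The distances between consecutive regions gave no break at 50000 bp. There were 84 consecutive starts within 10 kb of each other and 67 from 10 to 20 kb, then 50, 49 and 56 in the next steps of 10 kb. Just beyond the limit, the steps from 50 to 60 and from 60 to 70 kb held 44 each. Counts were therefore highest below 20 kb and declined slowly across the limit.

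**Figure D1:**
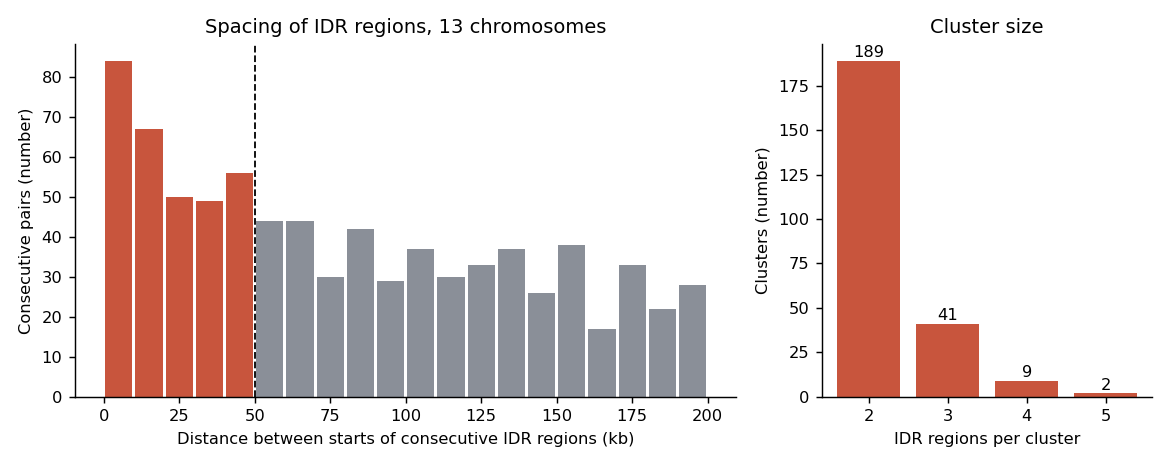
The left panel shows the number of consecutive IDR regions at each distance between starts, in steps of 10 kb, with the limit of 50 kb dashed. The right panel shows the number of clusters by size. The step below 10 kb holds the most (84), the bars change little across the dashed line (56 before and 44 after), and 189 of the 241 clusters are pairs.

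Regions on both sides of the limit had a similar range of signal. The 3 closest pairs of neighbours inside it had starts 49636, 49603 and 49316 bp apart, on chromosomes 2, 9 and 14. The 3 just outside it had starts 50135, 50226 and 50328 bp apart, on chromosomes 2, 20 and 16. Deposited signal ran from 142 to 754 in the 6 regions inside and from 172 to 723 in the 6 outside. One region of the outermost pair, on chromosome 16 from 90038188 to 90039573, was a member all the same through a neighbour on its other side.

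The share of clustered regions was uneven over the chromosomes. Chromosome 16 had the highest share of clustered regions, with 66 of 153 (43.1%, interval 35.2% to 51.4%), and chromosome 11 followed with 72 of 185 (38.9%, interval 31.9% to 46.3%). The lowest shares were on chromosome 3 with 41 of 215 (19.1%), chromosome 4 with 33 of 172 (19.2%, interval 13.6% to 25.9%) and chromosome 5 with 32 of 166 (19.3%). The intervals of chromosomes 16 and 4 do not meet. A fixed distance finds more neighbours where regions lie denser, and density differed as well. The median distance to the nearest region was 67905 bp on chromosome 16 and 82270 bp on chromosome 11. On chromosomes 3, 4 and 5 it was 184999, 165123 and 184408 bp. The shares thus do not separate clustering from density.

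The median width was slightly higher in clustered regions. It was 1816 bp (interval 1715 to 1936) in clustered regions and 1701 bp (interval 1675 to 1747) in single ones, with quartiles of 1426 to 2501 bp and 1371 to 2391 bp. The log2 ratio of the medians was 0.09 (interval -0.03 to 0.21), and with a limit of 25000 bp it was 0.16 (interval 0.02 to 0.28). Intervals of medians are exact binomial ones and cover counting error only. Regions of 3000 bp or more made up 10.8% of the clustered and 11.1% of the single ones. By distance to the nearest neighbour, median width was 1993 bp (interval 1715 to 2421) within 5 kb and 1997 bp (interval 1603 to 2259) at 5 to 10 kb. It was 1690 bp (interval 1594 to 1899) at 25 to 50 kb and 1775 bp (interval 1677 to 1966) at 50 to 100 kb, and these intervals overlap.

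Signal did not set the clustered regions apart. The deposited IDR signal, a height whose scale is not named, had a median of 190.3 (interval 183 to 196) in clustered regions and 190.04 (interval 187 to 194) in single ones, against a full range from 134 to 1470. A signal of 500 or more was held by 21 of 547 clustered regions (3.84%, interval 2.39% to 5.81%) and by 74 of 1446 single ones (5.12%, interval 4.04% to 6.38%). The highest deposited score, 1000, was held by 55.8% and 53.9%. Larger clusters were not made of higher regions beyond their error, with a median signal of 186 (interval 179 to 196) in pairs, 192 (interval 182 to 207) in clusters of 3 and 202 (interval 183 to 227) in those of 4 or 5.

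Replicate support was asked next, counting a region as supported where it shared at least 1 bp with a peak of each replicate list. Of the clustered regions, 341 of 547 (62.3%, interval 58.1% to 66.4%) had a peak in both lists, 95 in replicate 1 only, 11 in replicate 2 only and 100 (18.3%) in neither. Of the single regions, 956 of 1446 (66.1%, interval 63.6% to 68.6%) had a peak in both and 211 (14.6%) in neither. Over all regions of these chromosomes the share with both was 65.1%, and over the whole list it was 63.3%. The clustered share was 3.77 percentage points below the single one, with an interval of the difference from -8.64 to 1.01 that includes 0. The difference was also negative with a limit of 25000 bp (-5.88, interval -11.8 to -0.103) or 100000 bp (-5.13, interval -9.47 to -0.805), where the interval excluded 0. It was not uniform over the chromosomes, and its median over the 13 chromosomes was -1.19 percentage points. Clustered and single shares were 47.1% and 66.4% on chromosome 9, but 80.0% and 63.2% on chromosome 22.

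**Figure D2:**
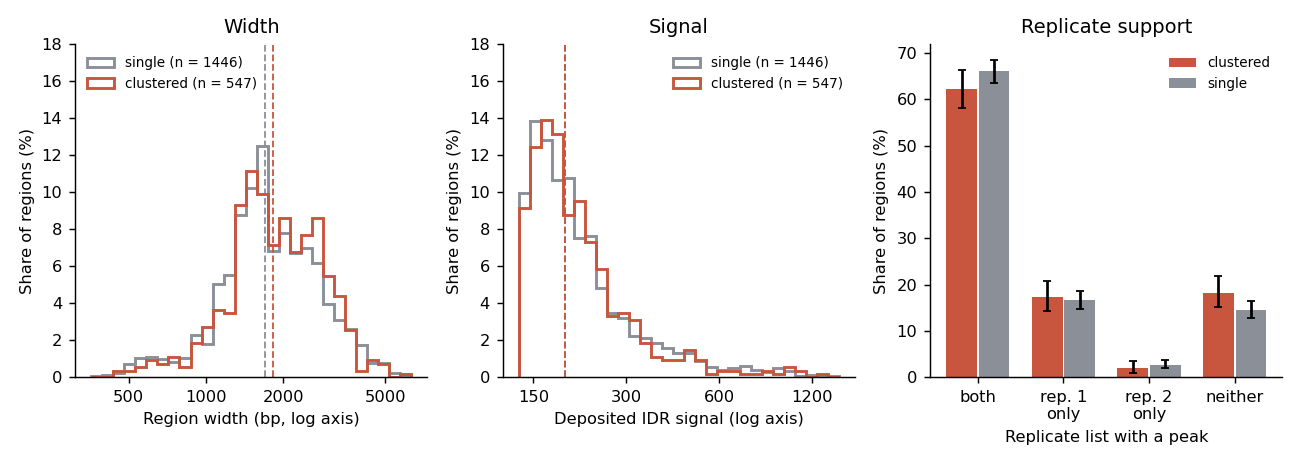
The panels show region width and deposited IDR signal (log axes, share of regions in each class, medians dashed) and the share of regions with a peak in both, 1 or neither replicate list (bars with 95% Clopper-Pearson intervals), for 547 clustered and 1446 single regions. The distributions lie nearly over one another, and the interval of the clustered share with both peaks, 58.1% to 66.4%, overlaps that of the single ones.

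Support was more common at high signal in both kinds of region. All regions were divided by signal into 4 classes of like size. In the lowest, up to 160.5, 43.7% of clustered and 41.0% of single regions had peaks in both lists. In the highest, from 245.5, the shares were 93.3% and 94.5%. The widest gap was in the third class, from 190.1 to 245.4, with 88 of 140 clustered regions (62.9%, interval 54.3% to 70.9%) against 266 of 358 single ones (74.3%, interval 69.4% to 78.8%). The difference there was -11.4 percentage points, with an interval from -21.1 to -2.08, and in the other 3 classes the interval of the difference included 0. Regions closest to a neighbour had the lowest share: 46 of 84 (54.8%, interval 43.5% to 65.7%) had both peaks where the nearest start was within 5 kb. The share was 63.5% at 5 to 10 kb, 61.4% at 10 to 25 kb and 65.7% (140 of 213, interval 58.9% to 72.1%) at 25 to 50 kb. Among single regions it was 61.6% at 50 to 100 kb. The intervals of all these classes overlap, and beyond 5 kb the shares did not rise steadily.

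Regions without any replicate peak were wide and low. The 100 clustered ones had a median width of 2233 bp and a median signal of 170, against 1603 bp and 217 in the 341 with both peaks. Single regions showed the same contrast, with 2222 bp and 156 against 1541 bp and 215. The signal of regions without a peak was higher in the clustered ones, with intervals of the median from 159.7 to 175 and from 153.6 to 160.04 that overlap by less than 1 unit.

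Occupancy in the replicate lists was measured as fold enrichment, the authors' ratio of ChIP pileup at the summit to the local input background. Where several peaks of a list lay on a region, the one with most ChIP fragments was taken. Over the 341 clustered regions with both peaks, the median of the mean fold enrichment was 3.91 (interval 3.73 to 4.19), against 4.26 (interval 4.07 to 4.50) in 956 single regions. The intervals overlap, and the log2 ratio of the medians was -0.12 (interval -0.27 to 0.04). With only the regions at or above the median signal, and neighbours found again among them, it was -0.35 (interval -0.67 to -0.02), so single regions of that set had the higher fold enrichment. Regions with a mean fold enrichment of at least 6 numbered 92 of 341 among the clustered (27.0%, interval 22.3% to 32.0%) and 305 of 956 among the single (31.9%, interval 29.0% to 35.0%), against 30.6% of all regions with both peaks on these chromosomes.

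Fragments at the summit, recovered from the deposited fold and p values, were nearly equal, with a median of 52.5 (interval 49 to 55.5) in clustered and 53 (interval 51.5 to 55.5) in single regions. Input background at the summit was 13.9 fragments (interval 13.2 to 14.5) and 13.5 (interval 13.1 to 13.9). Replicate 1 gave the higher fold enrichment at 258 of the 341 clustered regions (75.7%) and at 753 of the 956 single ones (78.8%). The median log2 ratio of fold, replicate 2 over replicate 1, was -0.25 (interval -0.28 to -0.22) in clustered and -0.26 (interval -0.28 to -0.24) in single regions. Summits of the replicates lay a median of 61 bp apart in clustered regions and 51 bp in single ones. They lay within 100 bp of each other in 62.8% of these clustered regions and 66.1% of these single ones, and up to 2428 bp apart in clustered regions. Where summits lie far apart, the 2 values of a region can come from different places in it.

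**Figure D3:**
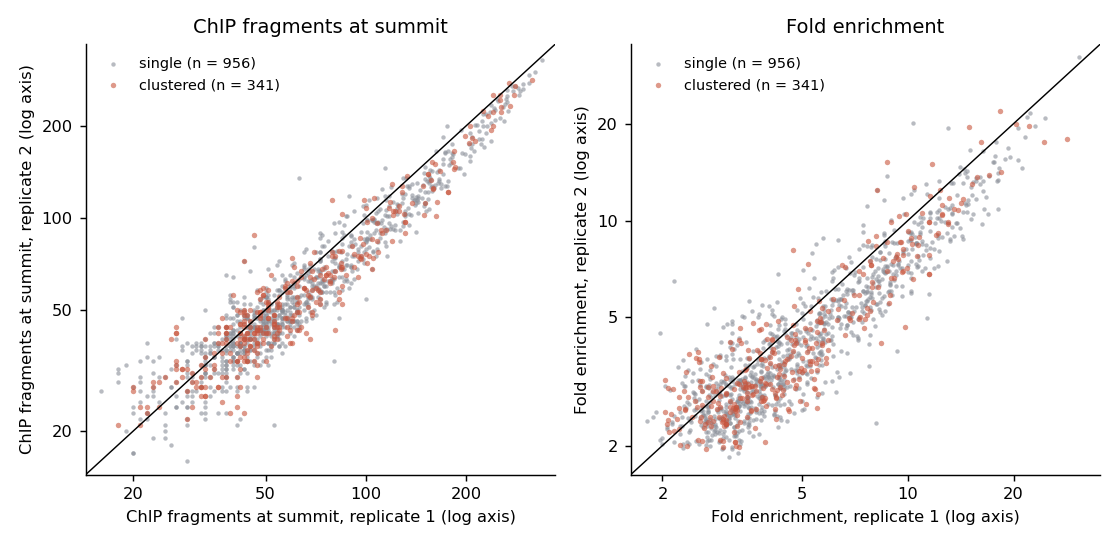
Each point is 1 IDR region with a peak in both lists, with its ChIP fragments (left) or fold enrichment (right) in replicate 1 on the x axis and replicate 2 on the y axis (log axes, line of equality drawn). The 341 clustered regions lie among the 956 single ones, and 258 of them are below the line for fold enrichment.

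Whether members of a cluster resemble each other was then described from consecutive regions. Signal differed by a median of 0.36 on the log2 scale (interval 0.30 to 0.43) between 306 neighbours within 50 kb, 0.39 (interval 0.36 to 0.46) between 490 regions at 50 to 200 kb and 0.42 (interval 0.38 to 0.47) between 696 at 200 kb to 1 Mb. Neighbours were alike in support, with both peaks at each region or at neither of them, in 176 of 306 cases (57.5%, interval 51.8% to 63.1%) within 50 kb, against 52.7% (interval 48.1% to 57.1%) at 50 to 200 kb and 57.0% (interval 52.4% to 61.4%) beyond 1 Mb. A close neighbour was thus about as different in height and support as a distant one, within these intervals. The share of these regions with both peaks was 62.7% within 50 kb, 63.3% at 50 to 200 kb and 67.2% beyond 1 Mb. Agreement in support was not adjusted for it. Input background differed less between close neighbours than between distant ones, at 0.39 (interval 0.28 to 0.45) within 50 kb and 0.54 (interval 0.45 to 0.69) beyond 1 Mb, intervals that just meet. Part of this is built in, because the 3 closest pairs shared 1 peak of each replicate and so had the same background. At 5 to 10 kb, with 13 pairs, the difference was 0.50 (interval 0.04 to 0.95).

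**Figure D4:**
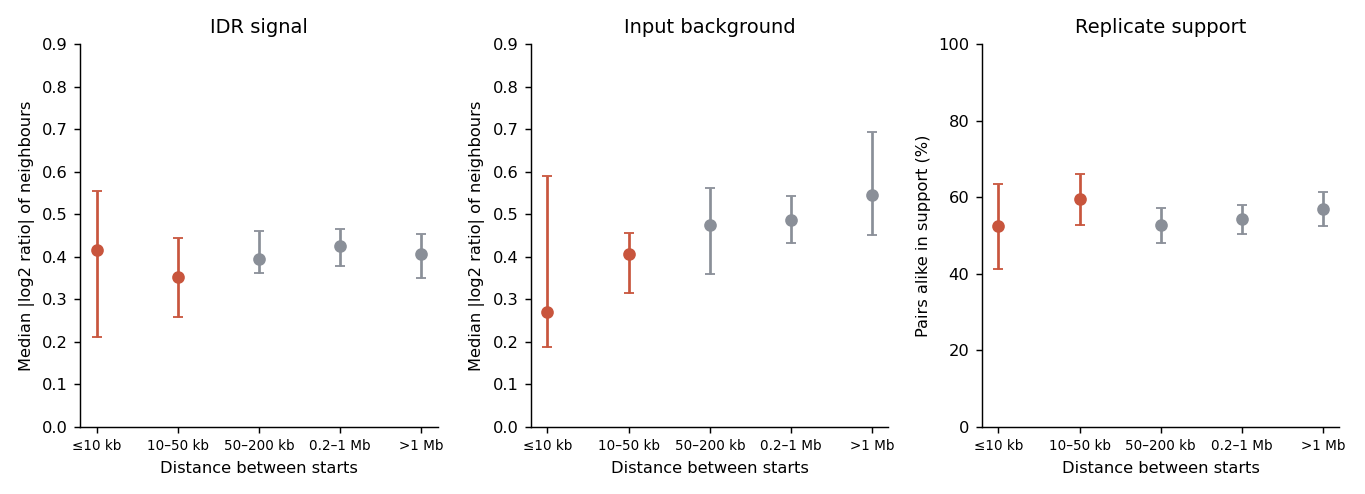
Points show the median absolute log2 ratio of IDR signal and of input background, and the share of pairs alike in replicate support, for consecutive regions at 5 distances between starts (bars are 95% exact intervals). For signal and support the classes within 50 kb, in red, overlap those beyond it in grey, and background differs least below 10 kb (0.27) and most beyond 1 Mb (0.54). The background value below 10 kb rests on 29 pairs, of which 3 shared their peaks and so their background.

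Within a cluster the replicates mostly ordered the members alike. The IDR procedure is meant to keep regions that rank alike in replicates, so the selection favours such agreement. In 75 pairs both regions had a peak in both lists; 71 were untied, and in 66 of these (93.0%, interval 84.3% to 97.7%) the same region had more fragments in both lists. In clusters of 3 to 5 regions the same member led in 35 of 38 (92.1%, interval 78.6% to 98.3%). Consecutive regions at 200 kb to 1 Mb kept their order in 257 of 292 cases (88.0%, interval 83.7% to 91.5%). The highest signal in a cluster was a median of 1.33 times the lowest, and at least 2 times in 52 of 241 clusters. All members had both peaks in 91 clusters (37.8%), no member had both in 37, and 5 clusters had no peak of either list on any member.

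Replicate peaks outside the IDR list were also more common near clustered regions. Within 50000 bp of the start, 318 of 547 clustered regions (58.1%, interval 53.9% to 62.3%) had a replicate 1 peak that lay on no IDR region, against 589 of 1446 single ones (40.7%, interval 38.2% to 43.3%). In replicate 2 the shares were 46.6% (interval 42.4% to 50.9%) and 32.3% (interval 29.9% to 34.8%). Members of a cluster share part of this window. With only the first region of each cluster counted, the shares were 54.8% (interval 48.3% to 61.2%) and 42.7% (interval 36.4% to 49.2%), still with intervals above those of single regions. Inside the spans of the clusters, 143 of 738 replicate 1 peaks and 95 of 559 replicate 2 peaks lay between the regions. They were low, with median fold enrichments of 3.11 and 3.08.

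The 2 clusters of 5 regions were both on chromosome 16. The first, from 685799 to 791480, had deposited signals of 172, 467, 214, 227 and 180 in order of position. Its highest region alone, from 729935 to 736047 and the widest of all members at 6113 bp, had peaks in both lists, with fold enrichments of 3.87 in replicate 1 and 2.74 in replicate 2. Of the others, 3 had a replicate 1 peak with fold enrichments from 2.21 to 2.49, and 1 had no peak. Replicate 1 thus had a peak on 4 of the 5 regions and replicate 2 on 1.

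The second, from 30405825 to 30457981, had both supported and unsupported regions. Its regions from 30411740 to 30412302 and from 30456852 to 30457981 had peaks in both lists, with fold enrichments of 8.49 ± 1.28 and 7.18 ± 2.34 (SD, n = 2 each). The other 3, with signals of 218, 201 and 182, had no peak in either list. The supported regions were also the narrowest of the 5, at 563 and 1130 bp.

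Of the 9 clusters of 4 regions, the 6 of highest summed signal were described. On chromosome 11, the cluster from 64863340 to 64902862 held the highest of their regions, from 64884802 to 64885653, with a signal of 635 and fold enrichments of 15.7 and 13.7 in the replicates. Its first region reached 6.13 and 5.69, and the remaining 2 had a replicate 1 peak only, at 2.79 and 2.24. The other cluster on chromosome 11, from 62606480 to 62649525, was the one among these 6 and the clusters of 5 with peaks of both lists on every region, and its mean fold enrichments ran from 2.29 to 4.16. Its region from 62608782 to 62609852 lay over high input background, with 133 and 137 fragments in the replicates over backgrounds of 26.3 and 39.5 and fold enrichments of 4.91 and 3.41.

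On chromosome 4, from 6641618 to 6718656, 3 of 4 regions had both peaks, with mean fold enrichments from 3.08 to 4.36. On chromosome 9, from 6681289 to 6759520, the first region stood out, with 8.96 in replicate 1 and 6.65 in replicate 2, while the next supported region had 4.76 and 3.01. On chromosome 6, from 42946057 to 43027658, the region of highest signal (321) had a fold enrichment of only 2.31 ± 0.279, below the 3.89 ± 0.620 of its neighbour with a signal of 218 (SD, n = 2 each). On chromosome 3, from 49044379 to 49068082, the regions covered 39.2% of the span, the most among the described clusters of 4 or 5, and fold enrichment was 4.84 ± 0.930 in the first region and 2.49 ± 0.218 in the last (SD, n = 2 each).

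**Figure D5:**
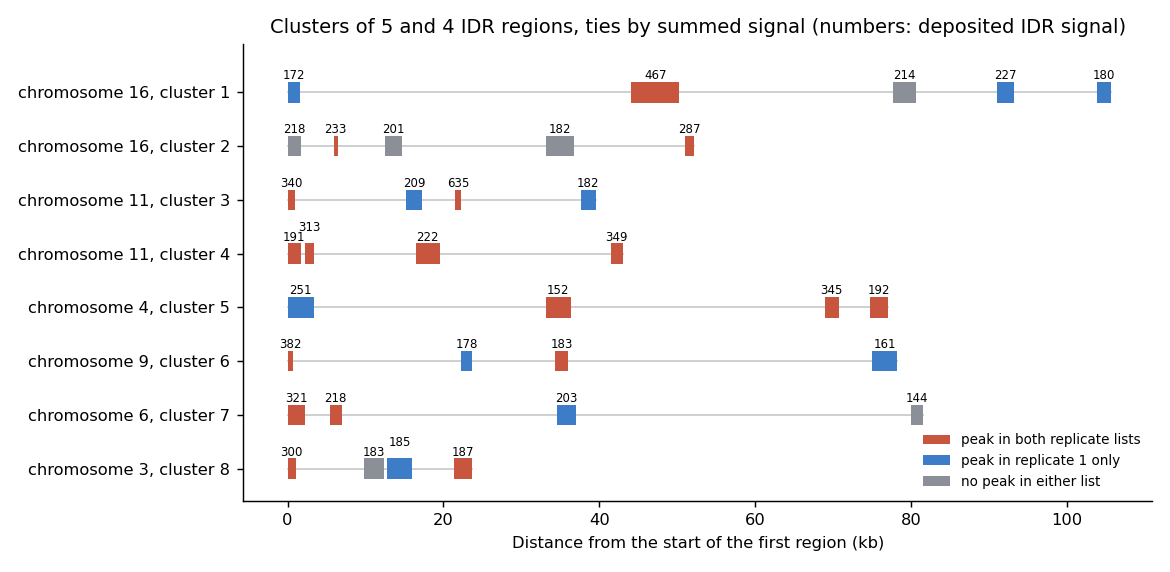
The 2 clusters of 5 regions and the 6 clusters of 4 regions with the highest summed signal are drawn to scale by distance from the start of the first region (kb), coloured by replicate support, with the deposited IDR signal above each region. Only the second cluster of chromosome 11 has peaks of both lists on every region, and the spans run from 23704 to 105682 bp.

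Apart from these 8, the 6 clusters whose lowest member had the highest signal, from 267 to 277, were all pairs. Pairs were 78.4% of all clusters, and ranking by the lowest member favours small clusters. On chromosome 16, the regions from 89723622 to 89725657 and from 89766837 to 89768567 had nearly equal signals of 282 and 277, with mean fold enrichments of 4.22 ± 1.70 and 2.94 ± 0.353 (SD, n = 2 each). On chromosome 15, the region from 69754632 to 69755774 had a signal of 834 and fold enrichments of 12.5 and 11.2, and its neighbour 10402 bp away a signal of 275 and fold enrichments of 2.50 and 2.63. On chromosome 4, the region from 103748654 to 103749539 had 12.2 and 9.17, and its neighbour 4.06 and 3.10. In these last cases 1 region of the pair was far above the other in both replicates.

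The other 3 pairs spanned less than 10000 bp each. On chromosome 10, regions from 126842339 to 126847281 and from 126848038 to 126849613 filled 89.6% of their span, with mean fold enrichments of 5.50 ± 0.900 and 2.87 ± 0.537 (SD, n = 2 each). On chromosome 11, the pair from 62432373 to 62439876 had 4.22 and 3.24 in replicate 1 and 2.80 and 1.99 in replicate 2, so the first region was higher in both. The pair from 124609379 to 124617495 had 3.75 ± 0.673 (SD, n = 2) in its first region and a replicate 1 peak only, at 2.65, in the second.

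The 6 clustered regions of highest fold enrichment were narrow, from 697 to 1060 bp. On chromosome 22, the region from 35626674 to 35627490 had 28.4 in replicate 1 and 17.9 in replicate 2, from 164 and 113 fragments, the widest spread of the 6. On chromosome 20, the region from 45312715 to 45313604 had 24.5 and 17.6. On chromosome 16, the region from 81068603 to 81069662 had 22.2 and 19.7, and that from 29776490 to 29777393 had 18.2 and 21.9. On chromosome 6, the region from 26327566 to 26328500 had 20.4 and 19.98, and that from 142606352 to 142607048 had 14.9 and 19.6. Replicate 1 was higher at 4 of these 6 regions.

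Because these 6 regions were chosen as the highest, the other regions of their clusters had a lower fold enrichment by construction. Of these 9 other regions, 7 had peaks in both lists, and 5 of the 7 had a mean fold enrichment between 2.59 and 4.73. That range lies around the median of 3.91 (quartiles 2.98 to 6.27) over the 341 clustered regions with both peaks. The region from 26365101 to 26366301 on chromosome 6 had 9.36 ± 1.27 (SD, n = 2). The region from 45317379 to 45319196 on chromosome 20 had 11.4 ± 1.49 (SD, n = 2), from 241 and 222 fragments over backgrounds of 18.4 and 20.5, and its signal of 1033 was the highest of its cluster. Its neighbour from 45312715, at 21.0 ± 4.88 (SD, n = 2), had fewer fragments, 159 and 125, over backgrounds of 5.53 and 6.16. Fold enrichment and fragments thus ordered these neighbours in opposite ways, and signal followed the fragments.

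The closest neighbours shared their peaks. On chromosome 4, regions from 26320903 to 26321542 and from 26321549 to 26322877 were 6 bp apart, and 1 peak of each replicate lay across both, with fold enrichments of 11.5 and 6.84. The same held on chromosome 22 for the regions that start at 38198644 and 38200286, with 11.5 and 9.88, and for those at 45403200 and 45404842, with 7.87 and 7.30. On chromosome 22 the region at 38200286 had 3 peaks of each list, the shared one included, and the other 5 regions of these 3 pairs had the shared peak alone. The fourth closest pair, on chromosome 6 at 157097440 and 157099297, had separate peaks, with 4.14 and 3.88 at the first region and 3.87 and 3.02 at the second. In all clusters, 5 replicate 1 peaks and 3 replicate 2 peaks lay across more than 1 region, so shared peaks touch few of the 241 clusters.

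No peak of either list lay on the regions of 5 pairs, all with low signals from 142 to 180. The 4 named by rule lay on chromosome 4 from 190569229 to 190581726, chromosome 16 from 15067374 to 15117016, chromosome 9 from 117348983 to 117374726 and chromosome 6 from 12007559 to 12012403. The last pair, on chromosome 6 from 109657529 to 109707463, had 2 replicate 1 peaks and 1 replicate 2 peak between its regions. The signals within each pair differed by at most 1.07 times.

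The part of chromosome 6 from 26 to 29 Mb, known as background for a large cluster of histone genes, held 20 regions, of which 16 were clustered, in 5 clusters. This window was added after its values were seen. Of all regions on the chromosomes described, 27.4% were clustered. Peaks in both lists lay on 14 of the 16, against 62.3% of all clustered regions. The 14 had a median fold enrichment of 4.47 over a median background of 6.35 fragments, against a background of 13.9 for all clustered regions with both peaks. The median signal of the 16, at 176, was below the 190.3 of all clustered regions.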

How the data were processed

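The series holds 2 ChIP and 2 input libraries, and values come from 3 deposited peak lists. Per the submitters' processing notes, the tools were MACS2 2.1.1, Picard and BWA 0.7.13-r1126, and the build was hg19; roles are not stated. Per the file headers, the replicate lists are MACS2 peaks. Each deposited peak has a fold enrichment (a ratio), a −log10 p-value, a −log10 q-value and a display score, all from the authors. Per its header, the third list holds optimal ChIP-seq peaks of ONECUT2, and its name marks it as an IDR list. Its deposited score and signal have no named scale, and no source used here names its caller.

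ChIP fragments and background at each summit were recovered from fold, taken as (fragments + 1)/(background + 1), and the Poisson upper tail. A whole number fitted within 0.001 on the −log10 p scale at all 14431 and 11990 peaks, against 1.08% and 0.726% with the tail 1 fragment off. On simulated peaks and positions the recovery, clustering and overlap steps returned the planted values in 100% of cases. Median fragments per summit were 34 and 30, which limits precision, and the depth of each library in reads is unknown here. At 41 of 41 peaks with the same summit in both lists and backgrounds over 1.1 times the smallest, the backgrounds stood in 1 ratio, 1.11, within 0.1%, so the folds share 1 input background as denominator.

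Positions are hg19, counted from 1. Values were computed with Python 3.11.15, pandas 2.3.3 and SciPy 1.17.1. Intervals (95%) are exact Clopper-Pearson for shares and binomial order-statistic for medians. Those of differences in share combine the distances to the limits as a root of summed squares. Those of ratios divide opposite limits of the 2 medians, so they are wider than 95%. All cover counting error only, since neighbouring regions are not independent. The members, named regions and alternatives were chosen with earlier results of these data known. Named are the 8 clusters with most regions (ties by summed signal), the 6 further clusters of highest lowest signal, the 6 members of highest mean fold, the 4 highest clusters without a peak, the 4 closest neighbours and 3 pairs on each side of the distance limit. The fifth cluster without a peak, the partners of the 6 members and the histone gene window were added after their values were seen.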

Additional observations from a re-analysis of the deposited data

How the results depend on the processing

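Over 92 alternative values of 10 results, 73 stayed within the interval of the result (or within 1.5 times, for the count of clustered regions), and 19 did not. None is counted as a reversal, because the main differences in width, signal, support, fold, fragments and background had intervals that include 0. The count of 547 clustered regions, their share of 27.4% and the share of pairs among clusters (78.4%) follow the distance by construction: they were 158, 7.93% and 87.8% at 10000 bp, 334, 16.8% and 84.3% at 25000 bp, and 828, 41.5% and 69.7% at 100000 bp. At 10000 bp the log2 ratio of clustered over single medians rose from 0.09 to 0.22 for width and from 0.00 to 0.10 for signal, with intervals that still include 0. Keeping only regions at or above the median signal gave 171 regions, 17.2% and 86.1%; support in both lists became 76.6%, and the log2 ratio of fold enrichment went from -0.12 to -0.35 (interval -0.67 to -0.02); the cause was not tested. Intervals that exclude 0 were found in 4 of 11 alternatives for the difference in support: -5.88 percentage points at 25000 bp (-11.8 to -0.103), -5.13 at 100000 bp (-9.47 to -0.805), -5.08 with a reciprocal overlap of 50% (-8.83 to -1.09) and -7.17 in the set of higher signal (-14.7 to -0.479). They were found in 2 of 6 for width, 0.16 at 25000 bp (0.02 to 0.28) and 0.18 in the set of higher signal (0.00268 to 0.44), and in 2 of 11 for fold, the second being -0.15 without chromosome 6 (-0.35 to -0.00165). None were found for signal, fragments or background. The share of clustered regions with peaks in both lists (62.3%) fell by construction to 47.2% with −log10 q of at least 5 and to 16.6% with a reciprocal overlap of 50%. Taking support from 1 list alone, it ranged from 64.4% without replicate 1 to 79.7% without replicate 2, while the difference from single regions ranged from -4.46 to -3.00 percentage points. As a median over the 13 chromosomes, the difference in support was smaller, at -1.19 percentage points, and had no interval. No paired analysis was possible because the 2 input libraries have no values of their own: both peak lists rest on the same background.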
